A study of Homo sapiens with 6 samples.

Results

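The genes described here are 51 genes that modify transfer RNA: OSGEP, its partners in the KEOPS complex and the other genes of the t6A modification, and enzymes of other tRNA modifications. They were taken by name from the 58302 genes counted in each library, and all 51 matched 1 Ensembl identifier each. Expression was measured by RNA sequencing in HL-60, an established human acute myeloid leukaemia line that grows in suspension. The knockdown cells carried a short hairpin RNA against OSGEP (3 libraries, with the genotype given as OSGEP knockdown) and the control cells carried a control hairpin (3 libraries, with the genotype given as WT). Both groups are the same line, grown in medium with serum and antibiotics, and no drug treatment is named for either. The labels do not say how many hairpins against OSGEP were used, whether the cells were clonal, or whether replicates are independent cultures. The p-values therefore reflect the spread of these 6 libraries alone, and that spread may be technical. The study asked what OSGEP does in this leukaemia, and the single comparison its design gives is OSGEP knockdown against control hairpin. Total counts ran from 8326982 to 10157091 per library, and the 51 genes took 0.158% to 0.166% of them.

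Transfer RNAs carry chemical modifications that enzymes add after transcription, many of them in the anticodon loop, where they shape codon reading. The t6A modification, threonylcarbamoyl adenosine, is made next to the anticodon, on tRNAs whose codons begin with A. YRDC makes the activated threonylcarbamoyl group, and KEOPS transfers it to the tRNA: OSGEP is the catalytic subunit, TP53RK a kinase-like subunit, TPRKB its binding partner, and LAGE3 and GON7 the remaining subunits. OSGEPL1 does the same work in mitochondria.

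The codons that t6A concerns are shown in the first 30 codons of 3 members, read from GENCODE release 29 transcripts, with every codon that starts with A in capitals. OSGEP is shown as the targeted gene, WDR4 as the other member called, and CTU1 as the member with the lowest share of such codons.
OSGEP: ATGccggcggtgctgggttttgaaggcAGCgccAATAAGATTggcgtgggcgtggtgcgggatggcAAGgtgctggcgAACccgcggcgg
WDR4: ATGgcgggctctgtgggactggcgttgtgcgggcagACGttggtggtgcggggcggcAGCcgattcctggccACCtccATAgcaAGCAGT
CTU1: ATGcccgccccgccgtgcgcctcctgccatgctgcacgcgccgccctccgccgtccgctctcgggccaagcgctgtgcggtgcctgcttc
Over the whole coding sequence, codons starting with A made up 25.7% of OSGEP, 21.6% of WDR4 and 8.91% of CTU1. The median was 26.3% in the 50 members tested and 27.2% in the 11109 coding genes tested. As a description across genes, which are not independent replicates and share the same 6 libraries, Spearman's rho between this share and the log2 fold change was -0.14 in the 50 members and -0.05 in all coding genes tested.

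The libraries fitted their label as myeloid cells. CD33, a myeloid surface receptor, and SPI1, a myeloid transcription factor, were not called, at 66.9 ± 2.84 and 170.4 ± 27.7 CPM (TMM-normalised counts scaled to library size) in knockdown libraries and 68.3 ± 8.44 and 187 ± 16.5 CPM in control libraries (SD, n = 3 each). The summed level of 10 promyelocytic markers was 1247 to 1303 CPM in knockdown libraries and 3065 to 3227 CPM in control libraries, and 5 of the 10 were called lower: MPO, ELANE, PRTN3 and AZU1, which are granule proteins, and the transcription factor MYB. The fall was not uniform over the list. CTSG, with a log2 fold change of -0.72, was not called (edgeR adjusted p = 0.0848). CEBPA and CEBPE had positive log2 fold changes, 0.28 and 0.94, and were not called either. Erythroid markers (7 genes) summed to 0.209 to 1.19 CPM in knockdown libraries and 0.309 to 2.35 CPM in control libraries, with HBG1 at 0 in all 6 libraries. Lymphoid markers (5 genes) summed to 3.56 to 4.38 CPM in knockdown libraries and 3.17 to 6.03 CPM in control libraries. Epithelial and mesenchymal markers (8 genes) summed to 34.02 to 60.3 CPM in knockdown libraries and 25.6 to 32.9 CPM in control libraries, and 1 of them, CDH1, was called higher. The nuclear RNA MALAT1 was also called lower, with a mean of 1434 ± 9.55 CPM in knockdown libraries and 2242 ± 222 CPM in controls (SD, n = 3 each). NEAT1, the other nuclear RNA listed, was not called, at 432 ± 40.5 CPM in knockdown libraries and 373 ± 41.1 CPM in controls, and neither were the mitochondrial mRNAs MT-ND1, MT-CO1 and MT-CYB. The part of these shifts in the results below was not tested.

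OSGEP, the target of the hairpin, had less mRNA in every knockdown library. Its level was 21.2, 23.1 and 20.9 CPM in knockdown libraries 1, 2 and 3, against 49.05, 54.4 and 76.9 CPM in control libraries 1, 2 and 3. Every knockdown library stood below every control library, the knockdown libraries lay close together, and control library 3 was the highest of the 6. The log2 fold change was -1.47 (95% interval -1.92 to -1.01; edgeR adjusted p = 0.000228), on means of 21.7 ± 1.21 CPM in knockdown libraries and 60.1 ± 14.8 CPM in control libraries (SD, n = 3 each). It kept its call in all 13 alternative fits, and without control library 3 it was -1.25. In bulk RNA, fewer cells with an active gene and less RNA per cell cannot be told apart. In GRCh38, OSGEP runs from 20446411 to 20455105 of chromosome 14, minus strand.

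By the RefSeq starts, OSGEP begins 414 bases from APEX1, a DNA repair nuclease gene that is read in the opposite direction. APEX1 is given as the neighbouring gene, and a cause acting through the shared region was not tested. The 250 bases before the OSGEP start (RefSeq, GRCh38.p14, chr14:20454813-20455062, minus strand) are printed here, with capitals on the 87 bases that the windows of both genes share. RefSeq and GENCODE differ on where OSGEP starts, and the GENCODE gene span reaches past this window.
OSGEP promoter: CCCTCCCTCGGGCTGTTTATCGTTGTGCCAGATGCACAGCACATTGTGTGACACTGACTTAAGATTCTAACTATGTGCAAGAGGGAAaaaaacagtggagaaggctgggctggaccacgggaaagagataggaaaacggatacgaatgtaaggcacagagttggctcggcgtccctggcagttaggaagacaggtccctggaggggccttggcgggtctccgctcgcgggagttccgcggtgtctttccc
APEX1 had 253 ± 28.3 CPM in knockdown libraries and 287 ± 9.54 CPM in control libraries (SD, n = 3 each). Its log2 fold change was -0.18 (95% interval -0.42 to 0.06; edgeR adjusted p = 0.403), so the interval lies wholly above that of OSGEP.

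None of the other KEOPS subunits was called, and their libraries overlapped between the groups. TPRKB was the most abundant subunit, at 118, 92.7 and 111 CPM in the knockdown libraries and 89.9, 103 and 118 CPM in the controls. GON7 had 27.8, 35.7 and 28.6 CPM in the knockdown libraries and 36.4, 32.8 and 33.97 CPM in the controls. TP53RK had 22.8, 17.6 and 16.7 CPM in the knockdown libraries and 19.8, 16.7 and 19.3 CPM in the controls. For these 3 genes the intervals of the log2 fold change were narrow enough to leave out a change of 2-fold: 0.05 (95% interval -0.27 to 0.37) for TPRKB, -0.16 (95% interval -0.61 to 0.28) for GON7 and 0.04 (95% interval -0.53 to 0.60) for TP53RK. LAGE3 was too variable for that, at 4.59, 17.9 and 13.8 CPM in the knockdown libraries and 9.79, 2.97 and 16.98 CPM in the controls. Its libraries spread widely within both groups, and its log2 fold change was 0.29 (95% interval -0.88 to 1.47). YRDC, the enzyme that supplies KEOPS, had 58.01, 53.7 and 47.9 CPM in the knockdown libraries and 39.6, 61.2 and 47.5 CPM in the controls, with a log2 fold change of 0.11 (95% interval -0.30 to 0.51). YRDC shares 509 exon bases with C1orf122 on the other strand, and the part of shared reads was not tested. C1orf122 was not called, with a log2 fold change of 0.58 (edgeR adjusted p = 0.0505). The log2 ratio of OSGEP to the mean of its 4 partners was -0.19, -0.47 and -0.49 in the knockdown libraries and 0.80, 1.43 and 1.18 in the controls. The groups did not overlap, with a difference of -1.52. The exact two-sided permutation p was 0.1, the smallest that 3 against 3 allows, and 0.1 adjusted over the 2 ratios tested. As OSGEP is the target of the hairpin and its partners were not called, the ratio restates the fall of OSGEP and is no separate support.

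**Figure D1:**
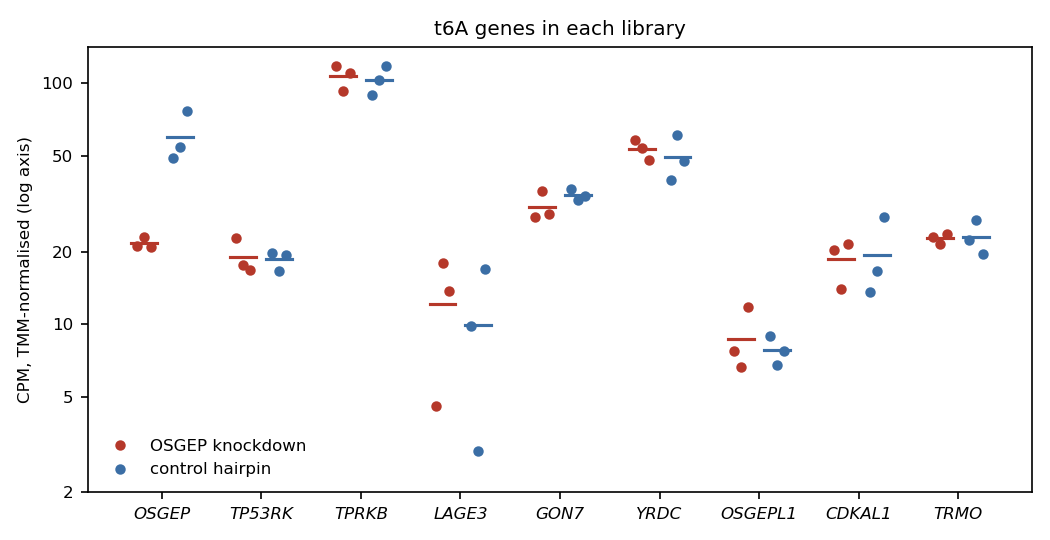
Level of the 9 t6A genes in CPM (TMM-normalised, log axis), with 1 point per library and a bar at the mean of 3 libraries, OSGEP knockdown on the left of each pair and control hairpin on the right. OSGEP is the gene whose points separate (20.9 to 23.1 CPM in the knockdown against 49.05 to 76.9 CPM in the control); those of the other 8 overlap.

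The mitochondrial relative and the enzymes that work on t6A after it is made were not called either. OSGEPL1 had 7.72, 6.66 and 11.7 CPM in the knockdown libraries and 8.96, 6.75 and 7.75 CPM in the controls. At that low level its log2 fold change of 0.15 (95% interval -0.73 to 1.03) does not leave out a doubling. CDKAL1, which adds a methylthio group to t6A, had 20.3, 14.1 and 21.6 CPM in the knockdown libraries and 13.6, 16.6 and 27.8 CPM in the controls. TRMO, which methylates t6A, had 23.1, 21.4 and 23.6 CPM in the knockdown libraries and 22.5, 27.1 and 19.6 CPM in the controls. In both genes the groups overlapped, and the log2 fold changes were -0.05 (95% interval -0.72 to 0.62) and -0.02 (95% interval -0.54 to 0.50).

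Over the whole set, 50 of the 51 genes passed the filter on low counts, and 2 were called: OSGEP and WDR4, both lower in the knockdown (edgeR quasi-likelihood test, adjusted p under 0.05). That is 4% of the members tested, beside 10.8% of all 14018 genes tested. Without OSGEP, the target of the hairpin, 1 of 49 was called (2.04%). Of those 49, 6 had an unadjusted p under 0.05 (12.2%) and 9 had groups that did not overlap (18.4%). Higher calls numbered 0 of 50 (5.19% of all genes), with 7 members at an unadjusted p under 0.05 (22.9% of all genes), 1 of them, TYW3, with a positive fold change; DESeq2 and limma-voom also called 0 higher. Of all genes, 727 were called higher and 780 lower, and 859 higher and 612 lower with scaling by library size alone. In place of 1507 calls, 941 were made without knockdown 3, 890 without control 2 and 870 without control 3. The groups did not overlap for 10 members, which is 20% of those tested beside 28.9% of all genes. Of the 10, TRMU, QTRT2 and TYW3 were higher (13.3% of all genes) and 7 were lower (15.6% of all genes). The median log2 fold change was 0.04 for the members and 0.01 for all genes tested, with 26 members above 0 and 24 below. The interval lay inside -1 to 1, leaving out a 2-fold change, for 31 of 50 members (62%), beside 45% of all genes. All 11 members with a mean of at least 50 CPM were among the 31, and 1 of the 11 under 10 CPM was.

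**Figure D2:**
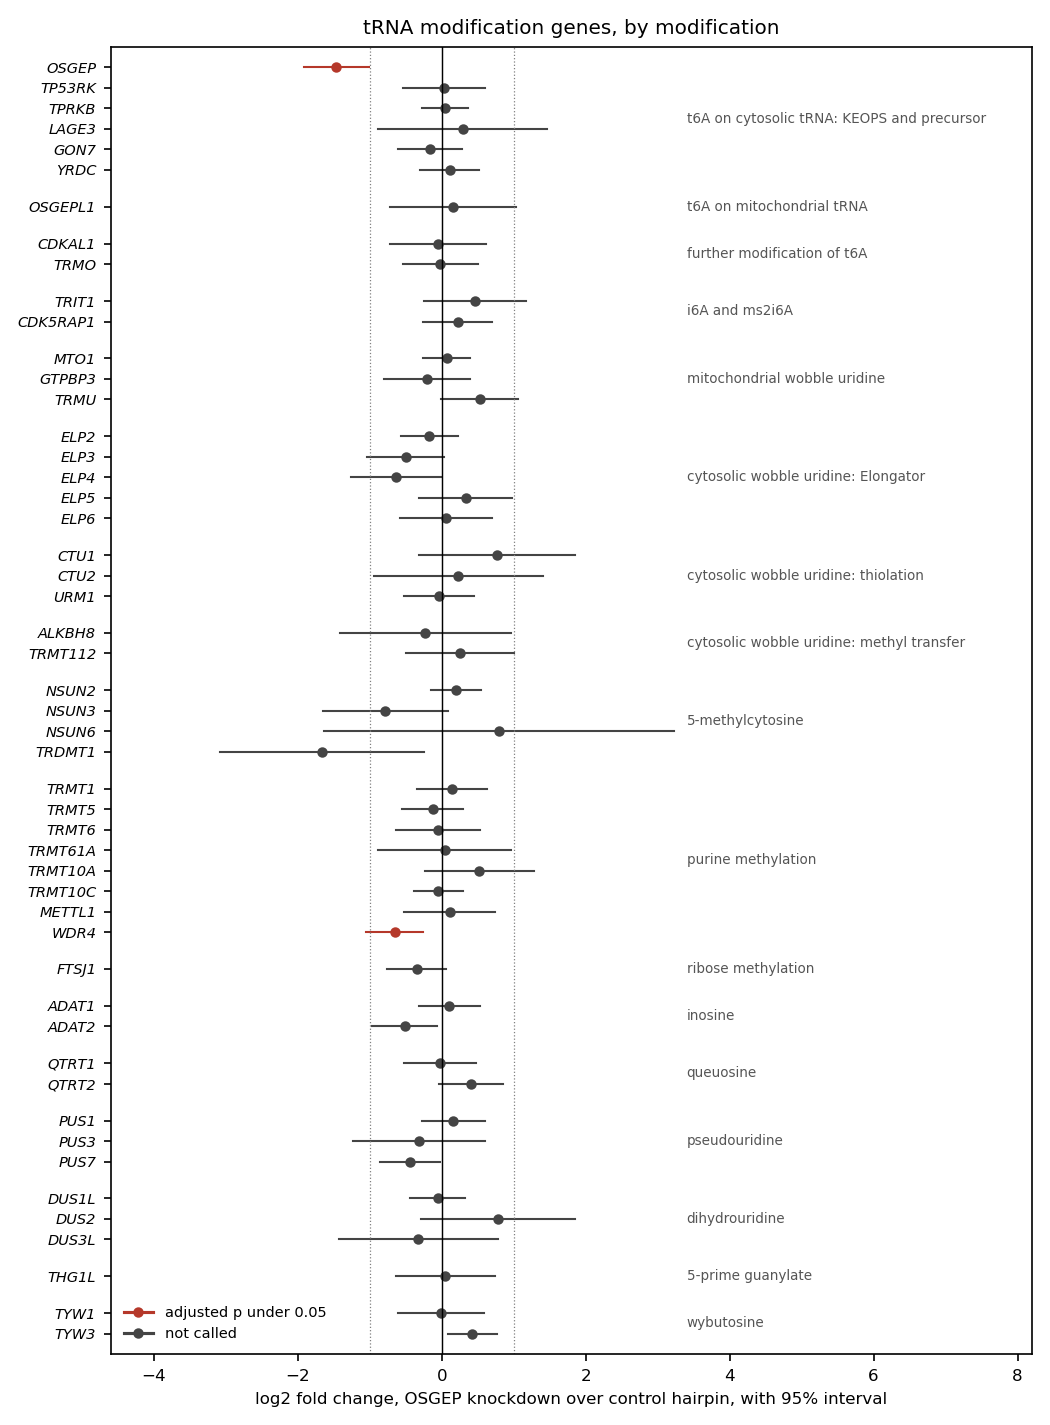
Log2 fold change of OSGEP knockdown over control hairpin for the 50 members tested, with points for estimates and lines for 95% intervals, grouped by modification; dotted lines mark -1 and 1. The 2 called members, OSGEP (-1.47) and WDR4 (-0.66), are in red, and the widest interval is that of NSUN6.

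**Figure D3:**
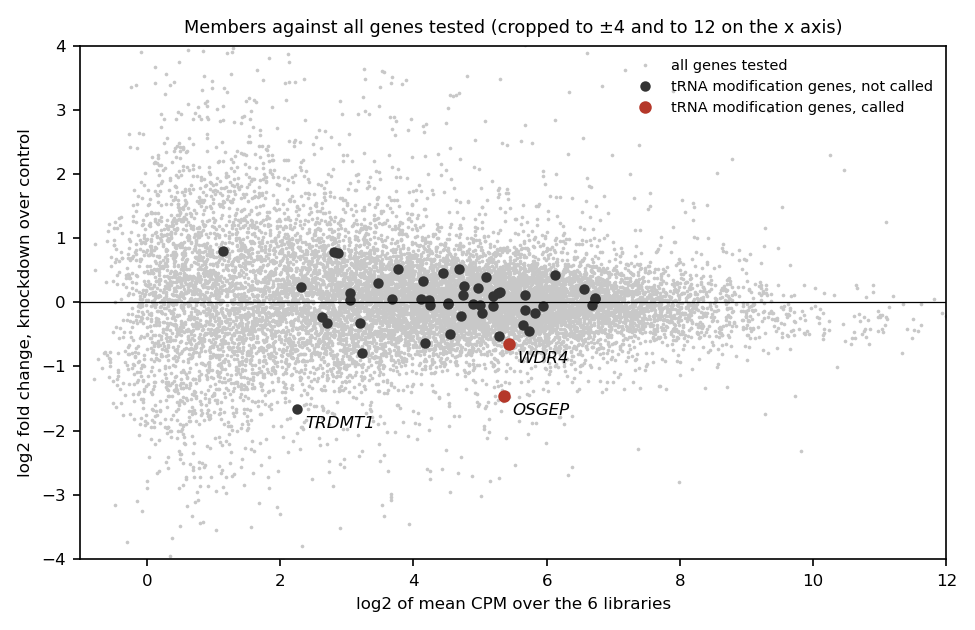
Log2 fold change against the log2 of the mean CPM over the 6 libraries, for all genes tested (grey, with points beyond the axes left out) and the members (dark, called ones in red). The members lie between -1.66 (TRDMT1) and 0.79 (NSUN6), inside the cloud of all genes.

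The other called member was WDR4, the non-catalytic partner of METTL1 in the enzyme that makes 7-methylguanosine in the tRNA variable loop. Its level was 33.1, 30.5 and 37.6 CPM in knockdown libraries 1, 2 and 3, against 51.2, 57.4 and 50.8 CPM in control libraries 1, 2 and 3. The groups did not overlap, and the spread within each was small. The log2 fold change was -0.66 (95% interval -1.05 to -0.27; edgeR adjusted p = 0.0306), on means of 33.7 ± 3.59 CPM in knockdown libraries and 53.1 ± 3.68 CPM in control libraries (SD, n = 3 each). In GRCh38, WDR4 runs from 42843094 to 42879568 of chromosome 21, minus strand. The call was close to the threshold. It was lost with any 1 library left out, at -0.65, -0.58 and -0.73 without knockdown 1, 2 and 3 and -0.69, -0.60 and -0.69 without control 1, 2 and 3 (edgeR adjusted p = 0.0508 to 0.145), and with library size alone (-0.59, edgeR adjusted p = 0.0519). METTL1, the catalytic subunit, had 31.9, 26.4 and 24.8 CPM in the knockdown libraries and 24.4, 37.6 and 14.9 CPM in the controls, with a log2 fold change of 0.11 (95% interval -0.52 to 0.74). Its control libraries spread more widely than its knockdown libraries. The log2 ratio of WDR4 to METTL1, chosen after the values were seen, was 0.05, 0.21 and 0.60 in the knockdown and 1.07, 0.61 and 1.77 in the control. Those groups were adjacent without overlapping, with a difference of -0.86. The exact two-sided permutation p was 0.1, the smallest possible, and unchanged at 0.1 after adjustment over the 2 ratios. That adjustment does not cover the choice of this pair from the same libraries, so the ratio is no separate support for the WDR4 call. METTL1 shares 506 exon bases with EEF1AKMT3 on the other strand and 107 with CYP27B1 on the same strand. Reads of these genes may not be told apart from those of METTL1.

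The remaining purine methyltransferases gave no call. TRMT10C, a subunit of mitochondrial RNase P that also methylates mitochondrial tRNA, was the most abundant, at 120.1, 77.8 and 104 CPM in the knockdown libraries and 98.6, 107 and 106 CPM in the controls. Its libraries overlapped, with a log2 fold change of -0.05 (95% interval -0.39 to 0.29). TRMT6 and TRMT61A form the enzyme for 1-methyladenosine, TRMT1 makes dimethylguanosine, TRMT5 methylates the guanosine beside the anticodon, and TRMT10A methylates a guanosine in the tRNA core. Their log2 fold changes were -0.06, 0.04, 0.14, -0.13 and 0.52. FTSJ1, which methylates ribose in the anticodon loop, had 44.3, 43.2 and 44.7 CPM in the knockdown libraries and 51.01, 70.98 and 46.6 CPM in the controls. The knockdown libraries were tightly grouped and all lay below the controls, yet the log2 fold change of -0.35 (95% interval -0.76 to 0.05) was not called (edgeR adjusted p = 0.298).

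Of the cytosolic wobble uridine pathway, 10 genes were measured and 0 were called by edgeR (10.8% of all genes), with 1 at an unadjusted p under 0.05 (22.9% of all genes). Elongator, the complex that begins this modification, had its most abundant measured subunit in ELP2, at 47.99, 66.6 and 45.4 CPM in the knockdown libraries and 62.8, 52.1 and 65.7 CPM in the controls. The groups overlapped, and the log2 fold change was -0.17 (95% interval -0.57 to 0.23). ELP4, a subunit of the Elongator accessory ring, had 18.99, 11.6 and 11.6 CPM in the knockdown libraries and 24.3, 22.3 and 19.2 CPM in the controls. All knockdown libraries lay below all controls, the one nearest to them being knockdown 1. Its log2 fold change of -0.64 (95% interval -1.26 to -0.02) was not called (edgeR adjusted p = 0.203). ELP4 shares 5241 exon bases with PAX6 on the other strand, and PAX6 itself did not pass the filter on low counts. ELP3, the catalytic subunit, also had groups that did not overlap, at 24.2, 16.2 and 17.6 CPM in the knockdown libraries and 27.2, 28.5 and 26.2 CPM in the controls. ELP3 was not called, with a log2 fold change of -0.50 (95% interval -1.03 to 0.03). The other ring subunits, ELP5 and ELP6, had log2 fold changes of 0.33 and 0.05.

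The sulfur branch of the wobble uridine pathway was measured with less precision. URM1, the ubiquitin-like sulfur carrier, had 37.7, 25.6 and 31.4 CPM in the knockdown libraries and 32.2, 38.6 and 26.6 CPM in the controls, with a log2 fold change of -0.04 (95% interval -0.53 to 0.45). CTU1 and CTU2, the subunits of the tRNA thiolation enzyme, reached at most 13.1 CPM in any library. Their log2 fold changes were 0.76 (95% interval -0.32 to 1.85) and 0.23 (95% interval -0.94 to 1.40). TRMT112, the small partner of ALKBH8 and other methyltransferases, had 12.8, 48.9 and 26.6 CPM in the knockdown libraries and 24.6, 21.4 and 28.3 CPM in the controls. Its knockdown libraries included both the lowest and the highest of the 6. This left a log2 fold change of 0.25 (95% interval -0.50 to 1.01) for TRMT112. ALKBH8, which forms the methyl ester of the wobble uridine, had 16 to 84 reads per library. The ALKBH8 log2 fold change was -0.23 (95% interval -1.42 to 0.96).

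In mitochondria, MTO1 and GTPBP3 build the taurine-containing wobble uridine and TRMU thiolates it. MTO1 was among the most abundant members, at 127, 97.7 and 101 CPM in the knockdown libraries and 102, 89.5 and 119.9 CPM in the controls. Its groups overlapped, with a log2 fold change of 0.07 (95% interval -0.26 to 0.39). GTPBP3 had a log2 fold change of -0.21 (95% interval -0.80 to 0.39). TRMU had knockdown libraries all above the controls, at 36.5, 26.3 and 28.5 CPM in the knockdown libraries and 25.2, 16.2 and 22.03 CPM in the controls, and a log2 fold change of 0.53 (95% interval -0.01 to 1.06) that was not called. Of the isopentenyl enzymes, which act on a different set of tRNAs beside the anticodon, CDK5RAP1, a methylthio transferase of mitochondrial tRNA, had 28.7, 42.2 and 30.6 CPM in the knockdown libraries and 31.2, 30.4 and 25.5 CPM in the controls. The groups overlapped. CDK5RAP1 and TRIT1, the isopentenyl transferase itself, had log2 fold changes of 0.22 (95% interval -0.26 to 0.70) and 0.46 (95% interval -0.25 to 1.17).

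Of the 5-methylcytosine enzymes, NSUN2, which methylates many tRNAs, had 82.1, 109.8 and 111 CPM in the knockdown libraries and 103, 83.8 and 76.8 CPM in the controls. It was not called, with a log2 fold change of 0.20 (95% interval -0.15 to 0.55). TRDMT1, also named DNMT2, which methylates the anticodon loop of aspartate tRNA, had the lowest fold change of all members, on few reads. It had 24, 31 and 12 reads in the knockdown libraries and 39, 40 and 111 in the controls, or 2.50, 2.87 and 1.42 CPM in the knockdown libraries and 4.02, 4.09 and 13.7 CPM in the controls. The groups did not overlap, and control library 3 was more than 3 times the other controls. The log2 fold change of -1.66 (95% interval -3.08 to -0.25) was not called (edgeR adjusted p = 0.136) and stood at -0.84 without control library 3. NSUN3, which acts on mitochondrial methionine tRNA, had 10.02, 4.44 and 6.17 CPM in the knockdown libraries and 11.3, 10.7 and 13.5 CPM in the controls, again without overlap. The NSUN3 log2 fold change of -0.79 (95% interval -1.65 to 0.08) was not called. NSUN6, which acts on a few tRNAs, had 0 to 34 reads per library, and its interval ran from -1.64 to 3.22.

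ADAT2 is the catalytic subunit of the deaminase that makes wobble inosine. It had 27.02, 36.3 and 32.5 CPM in the knockdown libraries and 36.2, 49.6 and 51.6 CPM in the controls. The highest knockdown library lay just above the lowest control. Its log2 fold change of -0.52 (95% interval -0.97 to -0.07) was not called (edgeR adjusted p = 0.146). Its partner ADAT3 was the 1 member that did not pass the filter, with 4, 8 and 3 reads in the knockdown libraries and 0, 8 and 1 in the controls. ADAT3 shares 792 exon bases with SCAMP4 on the same strand, and how shared reads were assigned is not stated. ADAT1, which deaminates alanine tRNA beside the anticodon, had a log2 fold change of 0.11 (95% interval -0.31 to 0.52).

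Queuosine replaces guanosine at the wobble position, through an enzyme of QTRT1 and QTRT2, neither of which was called. QTRT2, the accessory subunit, had 43.8, 35.1 and 37.5 CPM in the knockdown libraries and 27.4, 33.96 and 26.7 CPM in the controls. Each knockdown library lay above each control, by a small margin at the nearest pair. This gave a log2 fold change of 0.40 (95% interval -0.04 to 0.85), at an edgeR adjusted p of 0.277. QTRT1, the catalytic subunit, had a log2 fold change of -0.02 (95% interval -0.52 to 0.47).

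Among the pseudouridine synthases, PUS7 had 48.7, 35.4 and 51.5 CPM in the knockdown libraries and 51.4, 74.5 and 58.2 CPM in the controls. Knockdown library 3 and control library 1 nearly coincided, so the groups met. PUS7 had a log2 fold change of -0.44 (95% interval -0.86 to -0.02), not called (edgeR adjusted p = 0.192). PUS1 and PUS3 had log2 fold changes of 0.16 (95% interval -0.28 to 0.60) and -0.32 (95% interval -1.23 to 0.60). Of the dihydrouridine synthases, DUS1L was the most abundant, at 72.3, 60.6 and 48.7 CPM in the knockdown libraries and 72.1, 57.6 and 59.7 CPM in the controls. Its groups overlapped, with a log2 fold change of -0.06 (95% interval -0.44 to 0.32), while DUS2 and DUS3L, which reached at most 12.8 CPM in any library, had log2 fold changes with wide intervals, 0.79 (95% interval -0.29 to 1.86) and -0.33 (95% interval -1.43 to 0.78).

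TYW3, which acts late in the synthesis of wybutosine, a bulky guanosine of phenylalanine tRNA, had the smallest unadjusted p among members with a positive fold change. Its level was 84.1, 73.3 and 82.2 CPM in the knockdown libraries and 59.5, 50.5 and 68.7 CPM in the controls. The lowest knockdown library lay above the highest control. Its log2 fold change of 0.42 (95% interval 0.08 to 0.77) was not called over all genes (edgeR adjusted p = 0.119). TYW3 shares 257 exon bases with CRYZ on the other strand, and the part of shared reads was not tested. CRYZ was not called, with a log2 fold change of 0.53 (edgeR adjusted p = 0.294). TYW1, which forms the tricyclic core, had a log2 fold change of -0.02 (95% interval -0.61 to 0.58); it has a near-identical copy, TYW1B, with which reads may be shared. THG1L, which adds a guanosine to the start of histidine tRNA, had 10.9, 14.4 and 13.6 CPM in the knockdown libraries and 11.9, 14.6 and 11.1 CPM in the controls. Its values overlapped, with a log2 fold change of 0.05 (95% interval -0.63 to 0.73).

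**Figure D4:**
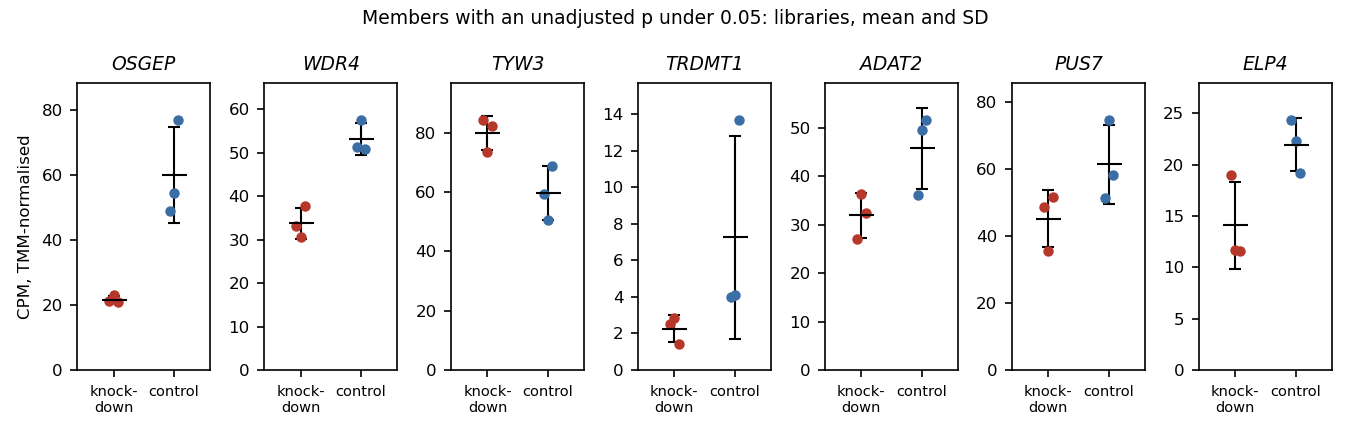
Level in CPM of the 7 members with an unadjusted p under 0.05, with 1 point per library and the mean with SD (n = 3), OSGEP knockdown on the left and control hairpin on the right; each panel starts at 0 and has its own scale. OSGEP and WDR4 were called over all genes; TYW3, TRDMT1, ADAT2, PUS7 and ELP4 were not, and the ADAT2 and PUS7 libraries overlap.

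Levels of different genes were compared per length of transcript. TPRKB, the KEOPS subunit that binds TP53RK, had the highest level of the 51 genes, in CPM per kb of the transcript with the longest coding sequence, at 131 ± 15.9 in the knockdown and 126 ± 16.98 in the control (SD, n = 3 each). TRMT10C came next, at 55.3 ± 11.7 in the knockdown and 57.2 ± 2.60 in the control. OSGEP stood at 10.9 ± 0.606 in the knockdown and 30.03 ± 7.39 in the control, place 28 of 51 in the knockdown and place 4 in the control. In the control, OSGEP, GON7, FTSJ1, DUS1L, YRDC and NSUN2 followed one another within their SDs, so their order is not resolved. GON7 stood at 26.6 ± 3.78 in the knockdown and 29.8 ± 1.57 in the control, YRDC at 29.1 ± 2.78 in the knockdown and 27.1 ± 5.98 in the control and LAGE3 at 12.7 ± 7.19 in the knockdown and 10.4 ± 7.39 in the control. TP53RK stood at 5.42 ± 0.945 in the knockdown and 5.29 ± 0.478 in the control, and OSGEPL1 at 4.62 ± 1.42 in the knockdown and 4.15 ± 0.588 in the control. In the knockdown, the OSGEP level was thus below those of TPRKB, GON7 and YRDC by more than the SDs, still above that of TP53RK, and within the spread of LAGE3. WDR4 stood at 15.9 ± 1.69 in the knockdown and 25.04 ± 1.73 in the control, and METTL1 at 13.4 ± 1.81 in the knockdown and 12.4 ± 5.53 in the control. These levels use 1 transcript length per gene, so isoform use can shift them. The length used was 819 bases for TPRKB and 2002 for OSGEP, against 2047 and 5037 bases over all annotated exons. For TRMT10C the 2 lengths were close, at 1819 and 1888 bases. The places of TPRKB and OSGEP therefore depend on the length chosen.

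**Figure D5:**
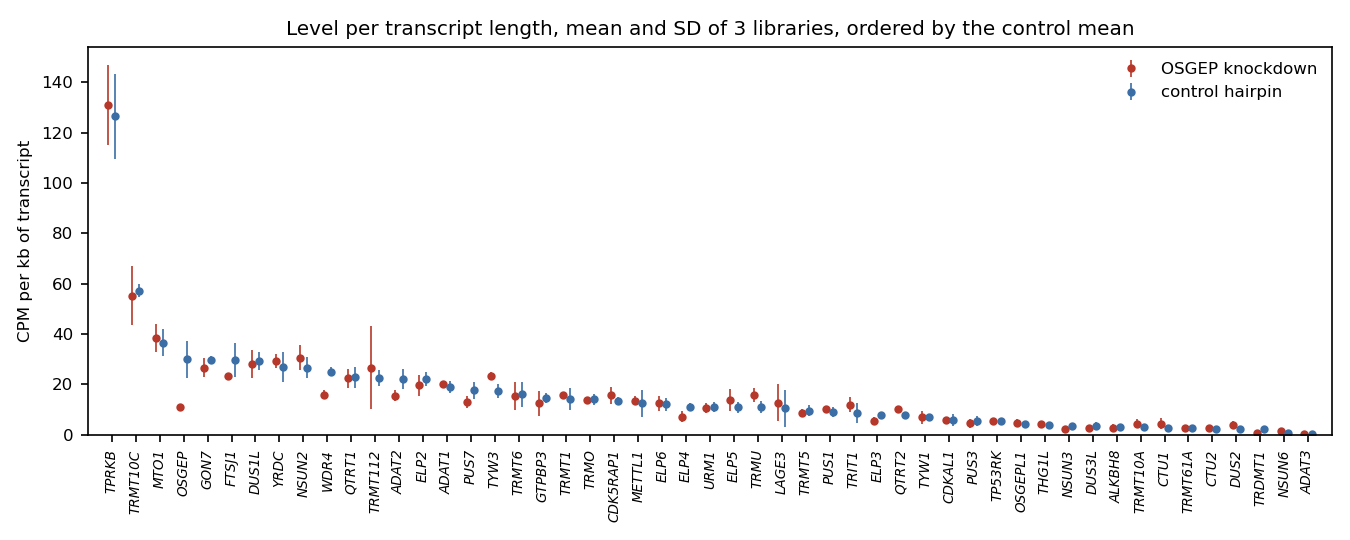
Level of the 51 members in CPM per kb of transcript, as mean and SD of 3 libraries, OSGEP knockdown to the left of control hairpin for each gene, ordered by the control mean. With the transcript length used, TPRKB stands far above the rest, and OSGEP takes place 4 by the control mean (30.03) but not by the knockdown mean (10.9). Both places depend on that length.

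A further 46 tRNA modification genes outside the 51 were listed, of which 45 passed the filter. Of these, 1 was called higher (5.19% of all genes tested) and 2 lower (5.56% of all genes tested), and the median log2 fold change was -0.07. THUMPD1, an RNA-binding adaptor for tRNA acetylation of cytidine, had 51.1, 57.5 and 59.4 CPM in the knockdown libraries and 101, 113 and 114 CPM in the controls. The groups were far apart relative to their spread. Its log2 fold change was -0.96 (95% interval -1.27 to -0.65; edgeR adjusted p = 0.000317), and it kept its call in all 13 alternative fits. NAT10, the acetyltransferase it assists, had a log2 fold change of 0.02 (95% interval -0.26 to 0.29) and was not called. TARBP1, a ribose methyltransferase, had 85.3, 56.7 and 41.6 CPM in the knockdown libraries and 96.5, 114 and 102 CPM in the controls. Its knockdown libraries were spread widely, with library 1 nearest to the controls. The log2 fold change was -0.76 (edgeR adjusted p = 0.0269). The call was lost without knockdown 2 (-0.69), knockdown 3 (-0.53) or control 1, 2 or 3 (-0.82, -0.70 and -0.78). QNG1, a hydrolase that salvages queuine, had 11, 11 and 19 reads in the knockdown libraries and 0 in each control. It passed the filter on low counts only through the knockdown libraries, so a gene of this kind had to differ and its call is no support for a rise. The ratio of its knockdown CPM to an assumed floor of 3 counts over the control group was 13.1. That ratio depends on the floor and leaves out the spread between libraries, so it is no bound on a change. The QNG1 call (edgeR adjusted p = 0.044) was lost with any 1 library left out (edgeR adjusted p = 0.0759 to 0.181), as well as with no filter and with limma-voom. Of the 51 members, 26 share annotated exon bases with another gene, mostly on the opposite strand. Among those neighbours that were called, UBR7 beside GON7 was lower and PLXNA3 beside LAGE3, SLC38A6 beside TRMT5 and SBDS beside TYW1 were higher. The members themselves were not called, and the part of shared reads in their values was not tested.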

How the data were processed

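HL-60 RNA was sequenced from a stranded mRNA kit as 150 bp paired reads, per the labels. The deposited values are raw counts of reads for each Ensembl gene, with a table for each library; the authors' tools HISAT2 2.1.0 and featureCounts 1.6.3, and the builds GRCh38 and GRCm38, are named in the submitters' processing notes without their roles. For the strand setting and for multi-mapping reads, the choice is not stated in the labels. Replicates of a group differed by more than counting noise (chi-square per degree of freedom 10.5 to 25.6), and each was kept as 1 sample. Symbols came from GENCODE release 29 and a table of current names (58039 of 58302 identifiers); QNG1 was matched through a RefSeq synonym.

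Counts were tested with edgeR 4.0.16 (R 4.3.3) by the quasi-likelihood F test, group as the only term, TMM scaling and the default filter (minimum count 10, total 15), which kept 14018 genes. Tests were two-sided, with Benjamini-Hochberg adjustment over all genes tested and a threshold of 0.05; 95% intervals come from the fold change, its F statistic and the fit's degrees of freedom. Fold changes are knockdown over control. The steps were tested on simulated counts. Alternatives were RLE and library-size scaling, other filters, the replicate block, DESeq2 1.42.0, limma-voom (limma 3.58.1), a threshold of 0.01, protein-coding genes alone and each library left out.

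Values by library are given for OSGEP, called members, members at an unadjusted p under 0.05, the most abundant member of each modification and all t6A genes. METTL1, ELP3, TRMU and NSUN3 were added after their values were seen. The members and lists were chosen with earlier results of these data known. No molecular identifiers are named in the labels, so precision from depth covers counting error only.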

Additional observations from a re-analysis of the deposited data

How the results depend on the processing

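Of the 26 members that the rule named, refitted under 13 alternatives (TRDMT1 under all but the filter at a mean CPM of 5), OSGEP was called in all (from -1.60 to -1.25 with 1 library left out), WDR4 in 5, and no other member in any. Direction was read only for called values; 28 uncalled values of 13 members changed sign. Lower calls among members were 1 with library size alone, with the replicate number as a block, at an adjusted p under 0.01 and in every fit with 1 library left out (1 to 1), against 2; higher calls stayed at 0. The block left WDR4 at -0.66 (edgeR adjusted p = 0.0714); same-numbered libraries did not deviate together (r = -0.15, -0.07 and -0.04), so the numbers were not read as pairs. The members' median was 0.10 with library size alone and -0.032 to 0.072 with 1 library left out. Of the other tRNA modification genes, higher calls were 0 without the filter, at a mean CPM of at least 5, with the block and with limma-voom, and 0 to 1 with 1 library left out, where lower calls were 1 to 2. The higher call without knockdown 2 was HSD17B10 (0.53; edgeR adjusted p = 0.0363), not QNG1. All called genes numbered 823 at 0.01 and 870 to 1624 with 1 library left out, against 1507; the cause was not tested. Of the 11 members under 10 CPM, 10 had intervals that did not leave out a 2-fold change; counting error and the spread between libraries both enter these intervals.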
